A study of Mus musculus with 6 samples.

Results

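The genes described here encode the subunits of the mitochondrial respiratory chain and ATP synthase that are made from nuclear DNA, together with assembly and accessory factors that carry the same name stems. They were chosen by name, as protein-coding genes on an autosome or the X chromosome whose symbol starts with Nduf, Sdha to Sdhd, Uqcr, Cox4 to Cox8 or Atp5. The rule found 99 of the 55804 rows of the gene table, with 98 different symbols because Atp5o is listed at 2 places. Of these, 37 belong to complex I, 4 to complex II, 8 to complex III, 19 to complex IV, 18 to complex V, and 13 are assembly or accessory factors.

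The RNA came from C2C12, a line of mouse muscle precursor cells that stops dividing and forms multinucleate myotubes in low serum. One group carried a control guide RNA (Ctrl-gRNA, genotype labelled WT) and the other a guide RNA against Prr33 delivered with CRISPR/Cas9 (Prr33-gRNA, labelled as a knockdown). Both groups were grown in 20% fetal bovine serum and collected after 3 days in differentiation medium with 2% horse serum, with 3 libraries each. The labels name no separate cultures and no second line per guide. The p-values therefore rest on how far these libraries differ among themselves, which may be technical spread, and an effect of the guide cannot be told apart from a difference between lines. C2C12 is 1 clonal line, and no label says whether the Prr33-gRNA cells are a clone or a pool.

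The respiratory chain sits in the inner mitochondrial membrane. Complexes I and II pass electrons from NADH and succinate to ubiquinone, complex III passes them on to cytochrome c, and complex IV, cytochrome c oxidase, gives them to oxygen, while complexes I, III and IV pump protons that complex V uses to make ATP. Several subunits of complex IV exist as a form found in most tissues and a form made in heart and skeletal muscle, among them Cox6a1 and Cox6a2, Cox7a2 and Cox7a1, and Cox8a and Cox8b, and muscle forms appear as myoblasts become muscle fibres.

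Total counts ran from 17006381 to 19118010 per library in Ctrl-gRNA and from 17412383 to 19471762 in Prr33-gRNA. Prr33 itself fell from 58.6 ± 3.76 to 43.8 ± 1.82 CPM (counts scaled to a library size adjusted by the TMM method; mean ± SD, n = 3), with a log2 fold change of -0.42 (SE 0.06; edgeR adjusted p = 1.37e-06). The groups differ widely: of 14651 genes tested, 52.1% passed an adjusted p of 0.05 with edgeR, 25.5% higher and 26.6% lower in Prr33-gRNA. Of 13 genes fixed as markers of differentiating muscle, 12 were lower and 1, the muscle creatine kinase gene Ckm, was higher, and their summed level was 35167 to 35660 CPM in Ctrl-gRNA against 19963 to 20838 in Prr33-gRNA. Among the other cell types checked, 7 fibroblast markers summed to 186 to 208 CPM against 16.4 to 18.5, with Lum at 0 counts, and 8 adipocyte markers to 2.79 to 5.08 CPM against 3.92 to 4.37, with Prdm16, Adipoq, Plin1 and Cfd at 0. The 7 cardiomyocyte markers summed to 57.4 to 64.6 CPM against 11.5 to 12.96, with Myl7 at 0 and both tested members on chromosome 14, 4 smooth muscle markers to 5936 to 5945 against 4797 to 4939, and blood, endothelial and neural markers to at most 1.82 CPM in any library. The part of these marker differences in the results below was not tested. In bulk RNA, fewer cells of a type and less RNA per cell cannot be told apart.

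The clearest difference lay in the muscle forms of complex IV, all 3 of which fell, while the common forms of 2 of these subunits rose. Cox7a1, the muscle form of subunit 7a (ENSMUSG00000074218; chr7:30184144-30186078, plus strand, mm10), was counted 53, 40 and 36 times in the controls, against 17, 7 and 24 times with the Prr33 guide. All 3 control libraries lay above all 3 Prr33-gRNA libraries, but the counts were low and scattered within the Prr33-gRNA group. The level fell from 2.48 ± 0.364 to 0.838 ± 0.414 CPM (n = 3), a log2 fold change of -1.55 (SE 0.34; edgeR adjusted p = 0.000252). No other tested member reached an absolute log2 fold change of 1, and leaving out single libraries gave -1.90 to -1.21.

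Cox6a2, the muscle form of subunit 6a (ENSMUSG00000030785; chr7:128205435-128206387, minus strand, mm10), was counted 623, 451 and 476 times in the controls, against 328, 315 and 391 times with the Prr33 guide. The groups did not overlap, and the first control library stood above the other control libraries also in CPM, at 33.7 against 27.4 and 28.3 CPM. The fall was -0.71 on the log2 scale (SE 0.09; edgeR adjusted p = 5.38e-08). In the annotation, 10.3% of its exonic bases are shared with Itgad. With the strand setting of the counting not given in the sources used here, reads of overlapping genes cannot be told apart.

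Cox8b, a muscle form of subunit 8 (ENSMUSG00000025488; chr7:140898945-140900446, minus strand, mm10), was counted 818, 695 and 753 times in the controls, against 524, 549 and 615 times with the Prr33 guide. In CPM the libraries of each group lay close together, from 42.2 to 44.8 CPM against 28.5 to 30.8 CPM, with a wide gap between the groups. The fall was -0.55 on the log2 scale (SE 0.07; edgeR adjusted p = 4.59e-08). All 3 muscle forms lie on chromosome 7, which also carries Prr33; Cox8b lies 1.59 Mb from it. Of 911 tested protein-coding genes on that chromosome, 170 were higher and 318 lower (median log2 fold change -0.07). Of the 9 tested members there, these 3 were lower and 0 higher.

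The common forms moved otherwise. Cox6a1 (ENSMUSG00000041697; chr5:115345642-115348981, minus strand, mm10) was counted 1800, 1562 and 1773 times in the controls, against 2102, 2331 and 2673 times with the Prr33 guide, and rose by a log2 fold change of 0.34 (SE 0.06; edgeR adjusted p = 6.27e-06). Cox7a2 (ENSMUSG00000032330; chr9:79755361-79759878, minus strand, mm10) had 1990, 1700 and 1829 counts against 2328, 2323 and 2526, and rose by 0.25 (SE 0.05; adjusted p = 4.17e-05). For both genes every Prr33-gRNA library lay above every control library. Cox8a had a log2 fold change of -0.08 (SE 0.16; adjusted p = 0.715) and spread widely among its own controls, at 115, 96.9 and 80.7 CPM. The calls of Cox7a1, Cox6a2, Cox8b, Cox6a1 and Cox7a2 and their directions were the same in all 18 alternative fits.

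**Figure D1:**
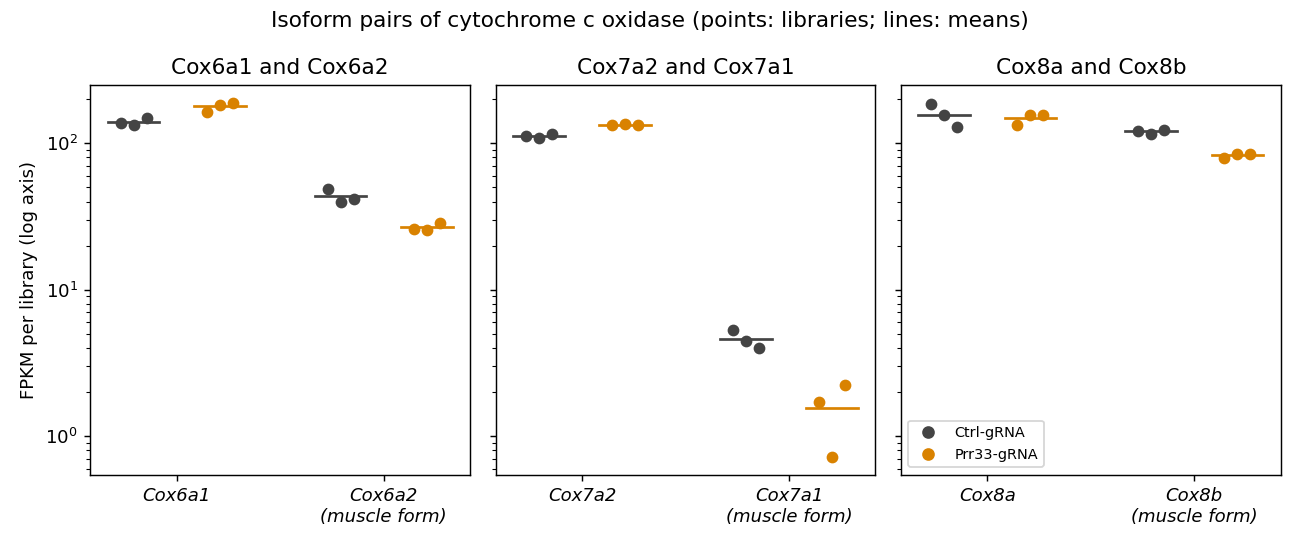
FPKM of each library (log axis) for the common and the muscle form of subunits 6a, 7a and 8 of cytochrome c oxidase; points are libraries and lines are group means. The muscle forms are lower in all 3 Prr33-gRNA libraries, while Cox6a1 and Cox7a2 are higher and Cox8a overlaps.

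On the scale of FPKM (reads scaled to gene length and library), the common form was the more abundant one in every pair. The length counts all annotated exonic bases, which can be longer than the RNA that is made. Levels of different genes therefore compare only roughly. Cox6a2 averaged 43.5 FPKM in Ctrl-gRNA and 26.8 in Prr33-gRNA, beside 140 and 178 FPKM for Cox6a1. Its share of the summed FPKM of the pair was 26.3%, 22.96% and 21.7% in the controls, against 13.9%, 12.2% and 13.1% with the Prr33 guide. Cox7a1 averaged 4.60 and 1.56 FPKM beside 112 and 134 FPKM for Cox7a2, and its share was 3.94% ± 0.567 against 1.15% ± 0.570 (SD, n = 3). Cox8b averaged 121 and 82.7 FPKM beside 156 and 149 FPKM for Cox8a, with shares of 39.8%, 42.8% and 48.9% against 37.1%, 35.1% and 35.2%. The 3 muscle shares were thus lower in every Prr33-gRNA library than in any control, and a share within a library is not changed by how libraries are scaled. Each gave p = 0.1 in a two-sided exact permutation test, the smallest p that 3 against 3 libraries allow, and 0.117 after adjustment over the 7 shares computed. Cox4i2, a form of subunit 4 used mainly in lung, had 0 to 5 counts per library beside Cox4i1, the common form, at 235 and 224 FPKM, and its share of 0.0964% against 0.111% gave p = 0.9 (exact permutation; adjusted 0.9).

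**Figure D2:**
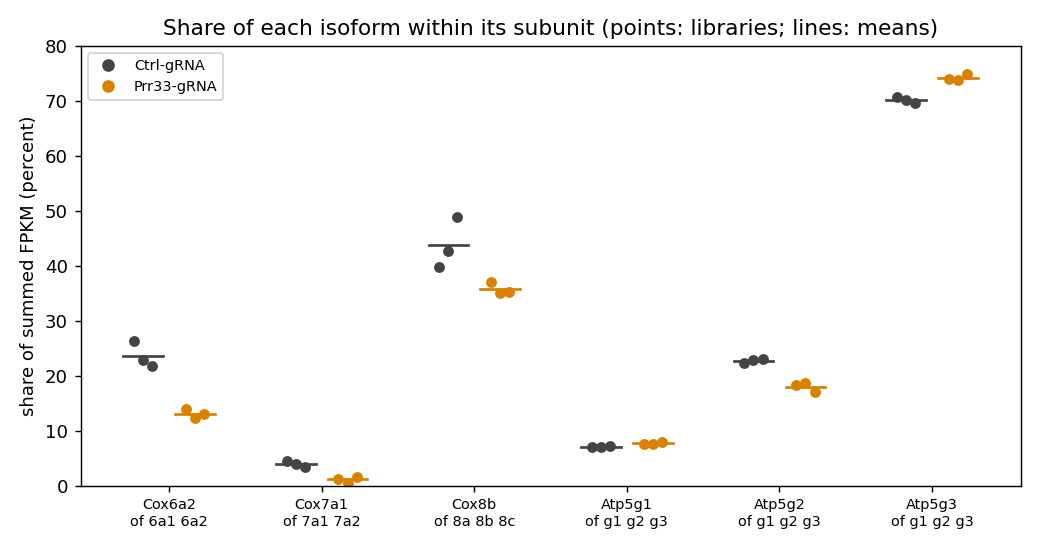
Share of each isoform (percent of the summed FPKM of its subunit) in every library; points are libraries and lines are group means. The muscle forms Cox6a2, Cox7a1 and Cox8b and Atp5g2 have lower shares in Prr33-gRNA, and Atp5g1 and Atp5g3 have higher ones.

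The promoters of these isoform genes are shown because the muscle forms fell while Cox6a1 and Cox7a2 rose; Cox8a, which was not called, is shown as the partner of Cox8b. Each stretch holds the 250 bases before the RefSeq start site (GRCm38.p6), 5′ to 3′ on the gene's own strand, with matches to the searched motifs in capitals. They are Cox7a1 at chr7:30183921-30184170 (plus), Cox8b at chr7:140900447-140900696 (minus), Cox6a1 at chr5:115348959-115349208 (minus), Cox7a2 at chr9:79759854-79760103 (minus) and Cox8a at chr19:7217617-7217866 (minus). Cox6a2 is named only.
Cox7a1: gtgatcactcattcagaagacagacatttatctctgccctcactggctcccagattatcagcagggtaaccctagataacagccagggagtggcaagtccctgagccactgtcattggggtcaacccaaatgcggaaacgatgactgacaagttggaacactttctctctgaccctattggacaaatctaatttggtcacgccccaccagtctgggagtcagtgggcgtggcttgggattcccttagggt
Cox8b: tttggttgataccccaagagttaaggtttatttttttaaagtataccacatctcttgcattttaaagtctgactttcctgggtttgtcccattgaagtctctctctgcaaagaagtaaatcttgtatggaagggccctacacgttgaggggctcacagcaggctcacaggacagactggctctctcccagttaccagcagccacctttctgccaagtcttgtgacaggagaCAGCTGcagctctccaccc
Cox6a1: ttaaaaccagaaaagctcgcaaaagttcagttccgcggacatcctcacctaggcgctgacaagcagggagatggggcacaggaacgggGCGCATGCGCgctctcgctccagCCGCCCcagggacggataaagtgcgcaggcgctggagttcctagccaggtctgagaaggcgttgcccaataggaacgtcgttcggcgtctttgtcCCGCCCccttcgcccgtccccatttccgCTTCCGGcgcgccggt
Cox7a2: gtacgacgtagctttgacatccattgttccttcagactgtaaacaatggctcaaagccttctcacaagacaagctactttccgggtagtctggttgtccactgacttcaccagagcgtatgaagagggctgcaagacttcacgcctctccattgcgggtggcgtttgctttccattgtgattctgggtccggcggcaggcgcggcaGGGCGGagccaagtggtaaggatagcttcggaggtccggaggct
Cox8a: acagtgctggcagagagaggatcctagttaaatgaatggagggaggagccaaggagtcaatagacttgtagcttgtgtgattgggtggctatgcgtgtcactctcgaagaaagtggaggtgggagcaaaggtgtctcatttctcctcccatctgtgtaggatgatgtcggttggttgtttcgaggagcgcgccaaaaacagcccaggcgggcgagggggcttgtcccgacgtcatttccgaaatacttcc

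Motifs were searched on both strands as exact letters: NRF1 as the shorter GCATGCGC and as its whole motif, which reads the shorter letters on both strands, ETS factors such as GABP as CCGGAAG, the nuclear receptor core AGGTCA and its extension TNAAGGTCA, which contains it, SP1 as GGGCGG, the muscle E-box as CAGCTG, and MEF2. The Cox6a1 stretch holds an NRF1 match 162 bases and an ETS match 16 bases before the start, with 2 SP1 matches, and Cox7a2 holds 1 SP1 match. Cox8b holds a muscle E-box 19 bases before its start, and the Cox7a1 and Cox8a stretches hold none of these letters. Over the 85 promoters found for 80 of the 98 member symbols, the whole NRF1 motif stood in 5.88%, against 0.782% of all 32851 promoters of that length, and the shorter one in 10.6% against 2.26%. The ETS motif stood in 18.8% against 6.91% and SP1 in 41.2% against 32.7%. The nuclear receptor core stood in 12.9% against 14%, its extension in 2.35% against 1.14%, the muscle E-box in 7.06% against 13%, and MEF2 in 0% against 0.508%. A match describes the letters only, and a window without one says nothing about the factor.

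Across the whole set the differences were small. Of 99 members, 92 passed the filter on low counts; 18 of them were higher (19.6%) and 27 lower (29.3%) in Prr33-gRNA, where the background over all tested genes was 25.5% higher and 26.6% lower. The median log2 fold change was -0.03 over the tested members and -0.00227 over all tested genes, and the median absolute value was 0.152 against 0.270. A log2 fold change of 0.5 or more in either direction was seen in 6.52% of tested members and 27.5% of all tested genes. Over tested protein-coding genes alone that share was 25.1% and the median absolute value 0.252. Neither background was matched to the members by level or chromosome. For 43 of the 47 members without a call, the interval of 1.96 SE around the log2 fold change stayed within 0.5 of 0. Groups stood apart in CPM, with no overlap, for 51.1% of tested members, 18 higher and 29 lower, beside 57.9% of all tested genes. Scaling by library size alone moved the median of all tested genes from -0.00227 to 0.09 and gave 29 higher and 17 lower members. Over all 14651 tested genes it gave 4999 higher and 3103 lower, against 3740 and 3899, so the background shifted the same way. The balance of directions thus rests on the scaling. Without the second control library, 11 members were higher. For fits without single libraries the share of all tested genes called is not given here. Such counts, here and below, are therefore no result about the members.

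**Figure D3:**
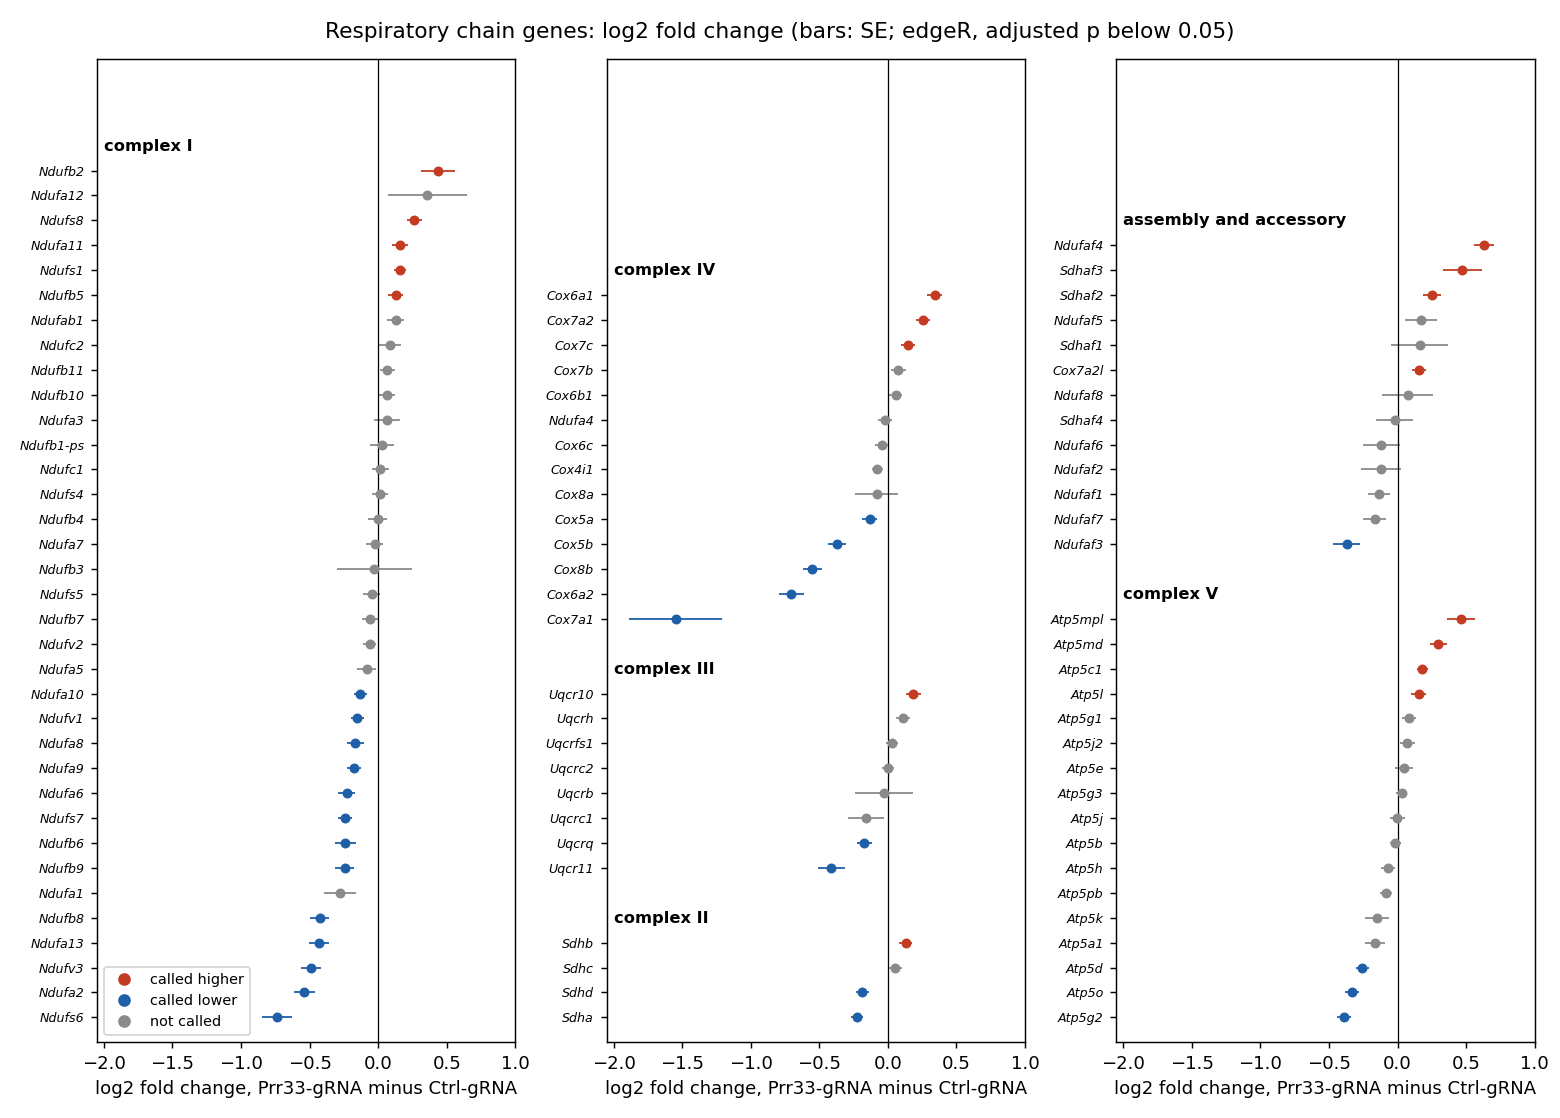
Log2 fold change of the tested members (Prr33-gRNA minus Ctrl-gRNA; bars are SE; 1 member left out), grouped by complex and ordered within it; red and blue mark edgeR calls at an adjusted p below 0.05. Most lie within 0.5 of 0, and Cox7a1, at -1.55, is farthest out.

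Of the 7 members not tested, 5 had 0 counts in all 6 libraries: Ndufs3, the second Atp5o row, and the largely testis-bound forms Cox6b2, Cox7b2 and Cox8c. A count of 0 allows up to 0.150 to 0.182 CPM per library (3 counts), for counting error only. Cox4i2 and Ndufa4l2, a relative of Ndufa4, had at most 5 counts in any library. Ndufs3 encodes a core subunit of complex I that respiring cells need, and its neighbours Kbtbd4, Ptpmt1 and C1qtnf4 within 100 kb were also listed at 0, with 1 count for Celf1, 4 for Agbl2 and 7603 for Mtch2 over the 6 libraries. Its level can therefore not be read from these counts. Exons of 38 members overlap another gene in GENCODE M21, 6 of them over more than 25% of their exonic bases. Among the 57 tested members with no such overlap 11 were higher (19.3%) and 13 lower (22.8%), beside 25.5% and 26.6% of all tested genes. Many of these genes also have processed pseudogenes, and their levels are uncertain, with the treatment of reads that have several matches not given in the sources used here. No member lies on chromosome 14, where 361 of 400 tested protein-coding genes were lower.

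In complex I, the NADH dehydrogenase, 5 of 36 tested genes were higher (13.9%) and 14 lower (38.9%), with a median log2 fold change of -0.05. Over all tested genes 25.5% were higher and 26.6% lower, the background for the counts of each complex below. Ndufs6, a small zinc-binding subunit of the NADH-oxidising arm, was counted 525, 394 and 329 times in the controls, against 269, 261 and 283 times with the Prr33 guide. The control libraries were scattered, from 19.6 to 28.4 CPM, and the Prr33-gRNA libraries lay together at 14.2 to 14.6 CPM, below all of them. It fell by 0.74 on the log2 scale (SE 0.11; edgeR adjusted p = 8.81e-07), and leaving out single libraries gave -0.86 to -0.59. Ndufv3, an accessory subunit of the same arm, fell from 41.9 ± 3.23 to 29.9 ± 1.21 CPM (n = 3; -0.49), and Ndufa2, another accessory subunit, fell from 57.9 ± 3.91 to 40.0 ± 5.15 CPM (-0.54). Ndufb8, of the membrane arm, fell from 44.6 ± 1.66 to 33.2 ± 1.89 CPM (-0.43), with no overlap between groups for any of these.

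Among the core subunits of complex I, those called did not share a direction. Ndufs7, an iron-sulfur subunit, stood at 114, 108 and 110 CPM in the controls, against 91.4, 92.8 and 97.3 CPM with the Prr33 guide. It fell by 0.24 on the log2 scale without overlap between groups, and Ndufv1, which binds NADH, fell by 0.15, the latter not called by library size alone or without the second control library or the third Prr33-gRNA library. The iron-sulfur subunit Ndufs8 rose by 0.26, from 80.6 ± 5.49 to 96.8 ± 3.99 CPM (n = 3), and the iron-sulfur subunit Ndufs1 rose by 0.16, with no call without the first control library. Ndufv2 had a log2 fold change of -0.06 (adjusted p = 0.300), and Ndufs3 was listed at 0.

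Of the other complex I genes that rose, Ndufb2, a membrane-arm subunit, went from 9.74 ± 1.28 to 13.2 ± 0.641 CPM (n = 3; log2 fold change 0.44). Its 1.72 FPKM in Ctrl-gRNA was the lowest among the tested genes of the complex, over an annotated length of 5628 bases. Ndufa11, also of the membrane arm, rose by 0.16, with no call without the first control or the first Prr33-gRNA library. Ndufb3 and Ndufa12 varied widely between libraries of a group, at 16.9 to 31.9 CPM and 5.82 to 11.2 CPM in Ctrl-gRNA. Their log2 fold changes of -0.03 (SE 0.27) and 0.36 (SE 0.29) did not pass. With library size alone 8 complex I genes were higher and 7 lower. Without the first control library 2 were higher, without the first Prr33-gRNA library 3, and without the third Prr33-gRNA library 9 were lower. The share over all tested genes in these fits is not given here, so these counts have no background and are no result about complex I.

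Complex II, succinate dehydrogenase, also belongs to the tricarboxylic acid cycle and is built only from nuclear-encoded subunits. Sdha, the flavoprotein that oxidises succinate, fell from 332 ± 13.7 to 284 ± 7.91 CPM (n = 3; log2 fold change -0.23, SE 0.04; edgeR adjusted p = 4.11e-05). Its libraries were 345, 335 and 318 CPM in Ctrl-gRNA and 292, 283 and 277 CPM in Prr33-gRNA, without overlap. Sdhd, a membrane anchor, fell by 0.19 (adjusted p = 0.00213), with no call by library size alone. The iron-sulfur subunit Sdhb rose by 0.13 (adjusted p = 0.0279), a call absent without either the first or the second control library or without the first Prr33-gRNA library. Sdhc, the other anchor, had a log2 fold change of 0.05 (adjusted p = 0.378).

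Complex III, the cytochrome bc1 complex, had 1 of 8 genes higher (12.5%) and 2 lower (25%), beside 25.5% and 26.6% of all tested genes. Uqcr11, a small subunit, was counted 1109, 856 and 755 times in the controls, against 677, 802 and 740 times with the Prr33 guide, and fell by 0.41 on the log2 scale (SE 0.10; edgeR adjusted p = 0.00368). In CPM, the lowest control at 45.0 CPM lay just above the highest Prr33-gRNA library at 44.4 CPM. Uqcrq, another small subunit, fell by 0.17 with overlapping groups, a call absent by library size alone, on the FPKM scales and without any of 3 single libraries (the first control, the first or the third Prr33-gRNA). Uqcr10, another small subunit, at 161 FPKM in Ctrl-gRNA, rose by 0.19 (adjusted p = 0.00406), and the call was lost without the second control library. The core subunits did not pass: Uqcrfs1, the Rieske iron-sulfur protein, had 0.03 (adjusted p = 0.583), Uqcrc2 had 0.00 with an SE of 0.04, and Uqcrc1 had -0.16 (adjusted p = 0.315). Uqcrc1 stood at 2.83 FPKM in Ctrl-gRNA beside 84.9 FPKM for Uqcrc2, its partner core protein, and at 11.8 CPM beside 218 CPM. The cause of this gap was not tested, and the level and log2 fold change of Uqcrc1 are uncertain.

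In complex IV, 3 of 14 tested genes were higher (21.4%) and 5 lower (35.7%), beside 25.5% and 26.6% of all tested genes. Beyond the isoform pairs, Cox5b, which binds zinc on the matrix side, fell from 68.1 ± 6.47 to 52.7 ± 4.11 CPM (n = 3; log2 fold change -0.37, SE 0.07; edgeR adjusted p = 3.14e-05). Cox5a had a log2 fold change of -0.13 (adjusted p = 0.035), and this call was lost in 10 of 18 alternatives, among them DESeq2 and leaving out any single control library or the third Prr33-gRNA library. Cox7c rose by 0.15 (adjusted p = 0.0228), with no call without the second control library or without the first or the third Prr33-gRNA library. Cox4i1, Cox6b1, Cox6c, Cox7b and Ndufa4, now counted as a complex IV subunit, had log2 fold changes from -0.08 to 0.08 and did not pass. By library size alone 5 complex IV genes were higher.

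Complex V, the ATP synthase, had 4 of 17 tested genes higher (23.5%) and 3 lower (17.6%), beside 25.5% and 26.6% of all tested genes. Atp5b, the catalytic beta subunit and the most abundant member of all at 405 and 403 FPKM, held 27.9% of the summed FPKM of the complex and had a log2 fold change of -0.02 (SE 0.04; edgeR adjusted p = 0.761). Its libraries differed from each other by little, with a CV of 1.24% and 1.12%. Of the rest of the catalytic head and stalk, Atp5c1, the gamma subunit of the rotor, rose from 260 ± 0.560 to 295 ± 1.55 CPM (n = 3; 0.18). Atp5d, the delta subunit, fell by 0.26, and Atp5o, the stalk subunit that holds the head in place, fell by 0.33, though 47.9% of the exonic bases of Atp5o lie in another gene. Atp5a1, the alpha subunit, had -0.17 (adjusted p = 0.0575) and stood at 15.8 FPKM in Ctrl-gRNA, far under its partner Atp5b. The cause of this gap was not tested, and the level and log2 fold change of Atp5a1 are uncertain. Its call rests on the setting: it passed without the third control library (-0.21), without the third Prr33-gRNA library (-0.25), with protein-coding genes only (adjusted p = 0.044), without chromosome 14 (0.0404) and with a replicate block (0.0332). It was -0.09 (adjusted p = 0.36) without the first Prr33-gRNA library and -0.08 (0.393) by library size alone. Atp5e, the epsilon subunit, had 0.05 (adjusted p = 0.576).

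The c subunit of the rotor ring is made from 3 genes whose mature proteins are the same. Atp5g2 was counted 1935, 1723 and 1786 times in the controls, against 1482, 1522 and 1522 times with the Prr33 guide, and fell by 0.39 on the log2 scale (SE 0.05; edgeR adjusted p = 1.32e-07). Its controls lay within 105 to 106 CPM and all Prr33-gRNA libraries at 76.1 to 84.2 CPM. Atp5g1 and Atp5g3 had log2 fold changes of 0.08 and 0.03 (adjusted p = 0.197 and 0.577). The share of Atp5g2 in the summed FPKM of the 3 genes was 22.8% ± 0.442 against 18.0% ± 0.849 (SD, n = 3), that of Atp5g3 70.2% ± 0.529 against 74.2% ± 0.632, and that of Atp5g1 7.07% against 7.75%. Each share again gave the smallest possible p of 0.1 (two-sided exact permutation; adjusted 0.117). These shares rest on annotated lengths of 4912 bases for Atp5g1, 1675 for Atp5g2 and 2181 for Atp5g3. In Ctrl-gRNA, Atp5g1 stood at 95.9 CPM beside 105 CPM for Atp5g2. From raw counts without length, the Atp5g1 share was 1.16 percentage points higher in Prr33-gRNA, against 0.678 by FPKM. Atp5mpl, a small membrane subunit, rose from 47.4 ± 6.20 to 65.3 ± 7.49 CPM (0.46; edgeR adjusted p = 0.00198), and Atp5md, a small subunit linked to pairing of the enzyme, rose by 0.30. Atp5l, the membrane subunit g, rose by 0.15. This call was absent on the FPKM scales, without either of the first 2 control libraries and without the second Prr33-gRNA library. By library size alone 7 complex V genes were higher.

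Summed over each complex, the FPKM of the groups differed by little, without overlap for complexes I and II and with overlap for III, IV and V. Complex I summed to 1612 ± 52.3 FPKM in Ctrl-gRNA and 1497 ± 40.6 in Prr33-gRNA (SD, n = 3), a ratio of 0.929, and complex II to 309 ± 5.66 and 291 ± 6.07 FPKM, a ratio of 0.940. Complexes III, IV and V had ratios of 1.01, 0.994 and 0.989. The ratios depend on scaling, and those of complexes I and II were 1.005 and 0.995 on CPM scaled by library size alone. Within complex I, the lowest level of a tested gene, averaged over all libraries, was 2.03 FPKM for Ndufb2. Such levels ran from 46.2 FPKM for Sdhc to 119 for Sdhd in complex II and from 2.69 for Uqcrc1 to 173 for Uqcr10 in complex III. They ran from 3.08 for Cox7a1 to 230 for Cox4i1 in complex IV and from 14.3 for Atp5l to 404 for Atp5b in complex V. The order of genes rests in part on their annotated length. Atp5l, at 6443 bases, had 87.7 CPM in Ctrl-gRNA, above 28.3 CPM for Atp5k. The low level of Uqcrc1 is uncertain, as given above.

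**Figure D4:**
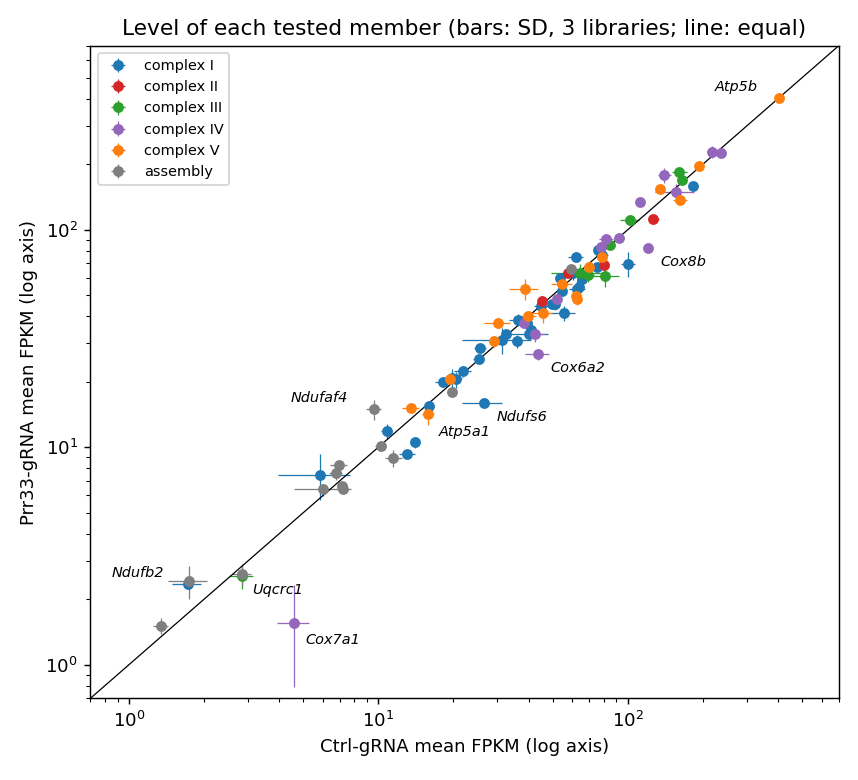
Mean FPKM of each tested member in Ctrl-gRNA (x) and Prr33-gRNA (y), both on log axes; bars are SD over 3 libraries, colours are the complexes and the line marks equal levels. Points keep close to the line over the whole range, with Cox7a1 below it and Ndufaf4 above it.

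The assembly and accessory factors had 4 of 13 genes higher (30.8%) and 1 lower (7.69%), beside 25.5% and 26.6% of all tested genes. Ndufaf4, an assembly factor of complex I, was counted 662, 607 and 680 times in the controls, against 1175, 933 and 1190 times with the Prr33 guide, the highest rise of any member. It went from 37.7 ± 2.47 to 58.4 ± 6.22 CPM (n = 3; log2 fold change 0.63, SE 0.07; edgeR adjusted p = 9.07e-09), and every Prr33-gRNA library lay above every control. Its promoter (RefSeq, GRCm38.p6; chr4:24897833-24898082, plus strand; the 250 bases before the start) is shown as that of the member with the highest rise, with an NRF1 and 2 SP1 matches in capitals.
Ndufaf4: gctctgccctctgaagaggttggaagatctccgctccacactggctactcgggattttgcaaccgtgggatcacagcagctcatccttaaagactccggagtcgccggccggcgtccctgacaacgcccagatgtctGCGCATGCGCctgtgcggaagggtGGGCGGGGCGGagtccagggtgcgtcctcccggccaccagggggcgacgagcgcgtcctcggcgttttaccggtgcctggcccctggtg

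Sdhaf2, which helps to attach the flavin to Sdha, rose by 0.25 (edgeR adjusted p = 0.00117). Sdhaf3, which helps to mature the iron-sulfur subunit Sdhb, rose by 0.47 (adjusted p = 0.0063), with no call on the FPKM scales or without the second control or the first Prr33-gRNA library. Cox7a2l, which links complexes III and IV into supercomplexes and had the highest level of these factors at 59.2 and 66.2 FPKM, rose by 0.15 (adjusted p = 0.0135), a call lost without the second control library. Ndufaf3, which acts with Ndufaf4 in complex I assembly, fell from 21.02 ± 1.65 to 16.3 ± 1.44 CPM (n = 3; -0.37). Without the second control library 2 of these factors were higher, with no share over all tested genes given here for that fit.

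The rest of the pathway was followed through lists of genes. Their counts of calls stand beside the background of 25.5% higher and 26.6% lower over all tested genes. Of the subunits encoded in mitochondrial DNA, 7 of 11 tested genes were higher and 0 lower, with a median log2 fold change of 0.53. mt-Nd4, of complex I, stood at 1248, 1297 and 1292 CPM in the controls, against 2071, 1807 and 2091 CPM with the Prr33 guide, a log2 fold change of 0.64. mt-Cytb, of complex III, had a log2 fold change of 0.67 and mt-Nd1, of complex I, of 0.41. Cytochrome c1 (Cyc1), a haem subunit of complex III, and cytochrome c (Cycs), which takes electrons from it to complex IV, both fell by 0.22. Cyc1 is the one complex III subunit that the naming rule left out, beside mt-Cytb.

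Among 17 tested regulators of mitochondrial biogenesis, 8 were higher and 4 lower, with a median of 0.13. Gabpa, an ETS factor that acts at respiratory gene promoters, rose from 92.7 ± 0.982 to 126 ± 6.13 CPM (n = 3; log2 fold change 0.44; edgeR adjusted p = 4.85e-09), and 12.7% of the exonic bases of the member Atp5j overlap it. Tfb2m, a mitochondrial transcription factor, rose by 0.55 and Yy1 by 0.29. Esrrg, an oestrogen-related receptor abundant in oxidative muscle, fell from 9.48 ± 0.904 to 3.20 ± 0.851 CPM (-1.56; adjusted p = 6.51e-09), and the coactivator Ppargc1b fell by 0.34, a call absent by library size alone and without the first control or the first Prr33-gRNA library. Nrf1 had 0.02 and the coactivator Ppargc1a 0.19 (adjusted p = 0.065), and neither passed.

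Assembly factors outside the name stems went both ways. For complex I, 1 of 8 tested was higher, Tmem126a at 0.23 (not called without the second control library), and 1 lower, Foxred1 (-0.40). For complexes III and V, 3 of 9 were higher, with Tmem70 of complex V at 0.49, and 3 lower, with Uqcc1 of complex III at -0.61. For complex IV, 4 of 22 were higher, with Coa3 at 0.37, and 3 lower, with Cox18 at -0.47 and Cox15, which makes haem a, at -0.31.

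In the tricarboxylic acid cycle with pyruvate dehydrogenase, 7 of 18 tested genes were higher and 3 lower, with Idh3a at 0.45. Of the lower genes, Sucla2 (-0.84) and Pdhb (-0.87) lie on chromosome 14. Among 12 tested carriers and import genes, 4 were higher and 3 lower, and Vdac2 (-0.96) and Timm23 (-1.13) are on chromosome 14. Slc25a4, the muscle form of the ADP/ATP carrier, fell from 342 ± 32.5 to 291 ± 17.4 CPM (n = 3; -0.23; edgeR adjusted p = 0.00534). By library size alone it had -0.14 and was not called (edgeR adjusted p = 0.0852). Slc25a5, the common form, rose from 267 ± 14.5 to 307 ± 10.9 CPM (0.20; edgeR adjusted p = 0.000424).

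**Figure D5:**
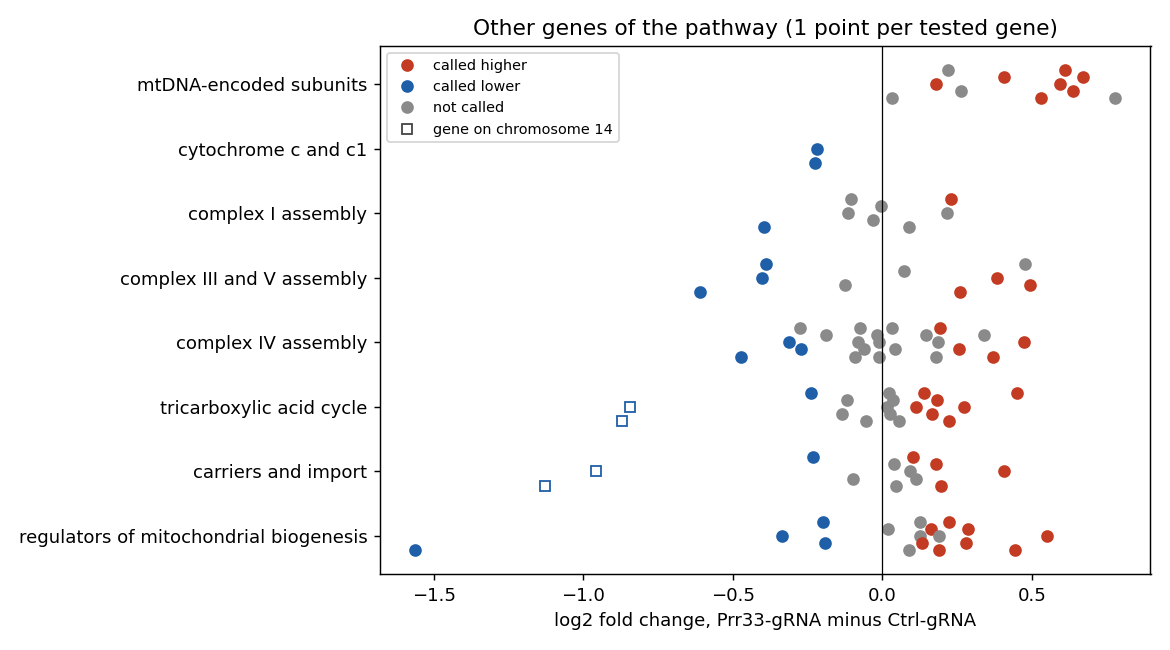
Log2 fold change (Prr33-gRNA minus Ctrl-gRNA) of each tested gene in 8 lists of the wider pathway, 1 point per gene, coloured by edgeR call; open squares lie on chromosome 14. Subunits encoded in mitochondrial DNA all lie to the right of 0, and the 4 squares are among the lowest points.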

How the data were processed

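RNA-seq was done on 6 libraries of differentiating C2C12 cells, 3 Ctrl-gRNA and 3 Prr33-gRNA, from TRIzol RNA with a NEBNext Ultra RNA kit, per the labels. Groups and replicate numbers came from the sample titles. Raw counts per gene and a second table of FPKM were deposited by the authors. For the members, these FPKM follow gene length and the TMM-adjusted library sizes more closely than total counts. Differences between groups on FPKM therefore share the scaling of the main test and are no check of it. The submitters' processing notes list HISAT2 2.0.5, featureCounts 1.5.0-p3 and CASAVA, and the mm10 build. The roles of these tools, strand setting and annotation release are not given in the sources used here.

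Counts were tested on the whole table with the quasi-likelihood test of edgeR 4.0.16 (R 4.3.3) after filterByExpr and TMM scaling (factors 0.969 to 0.971 in Ctrl-gRNA, 1.03 to 1.04 in Prr33-gRNA), with Benjamini-Hochberg adjustment over 14651 genes and a threshold of 0.05. On simulated data the method called 24 of 50 genes changed 1.25-fold, 32 of 50 changed 1.5-fold and 43 of 49 changed 2-fold. It called 48 of 48 changed 4-fold and 10 of 14245 unchanged genes. Many small changes were thus missed there. CPM uses TMM-scaled library sizes, and 3 counts in a library equal 0.150 to 0.182 CPM. Fold changes are log2 of Prr33-gRNA over Ctrl-gRNA. Shares of isoforms were compared by exact permutation of libraries. No library was a duplicate of another: chi-square values per gene were 2.87 to 5.62 within groups, above counting noise. All 99 members had the same start and end in GENCODE M21.

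The members, the gene lists and the tests were chosen with earlier results of these data known. Named genes were every isoform-set gene, fixed core subunits, in each complex up to 4 genes per direction with the lowest adjusted p, the highest and lowest level per complex, and up to 3 per direction in each pathway list. Ndufb3, Ndufa12, Cox6c, Atp5j, Nrf1 and Ppargc1a, the neighbours of Ndufs3 and the marker genes were named outside this rule, after their values were seen. Alternatives were RLE factors, library size alone, DESeq2 1.42.0, limma-voom (limma 3.58.1), no filter, protein-coding genes only, a filter of 1 CPM in 3 libraries, no chromosome 14, a replicate block, log2(FPKM + 1) and log2(FPKM + 0.1) with limma, each library left out, and an adjusted p below 0.01. For 2 genes that the naming rule covers, values are not reported here, though both are kept in the counts and sums. Figures were drawn with matplotlib 3.10.9.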

Additional observations from a re-analysis of the deposited data

How the results depend on the processing

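Of 1598 values of named genes over 18 alternatives, 1496 kept their direction and call, 75 lost and 11 gained a call, and 16 changed sign, none of them called. By library size alone, 29 members were higher and 17 lower, against 18 and 27. All tested genes shifted the same way, to 4999 higher and 3103 lower, against 3740 and 3899. By complex, the higher and lower counts were then 8 and 7 (I), 2 and 1 (II), 3 and 1 (III), with 5 higher in complex IV and 7 in V. With an adjusted p below 0.01, 3 complex I and 0 complex II genes were higher. On log2(FPKM + 1) and log2(FPKM + 0.1), 1 complex III gene was lower. Leaving out single libraries gave 11 to 20 members higher and 21 to 29 lower, and by complex 2 to 6 higher and 9 to 15 lower (I), 0 to 1 higher (II), 0 to 2 higher and 1 to 3 lower (III), and 2 to 4 assembly factors higher. For alternatives other than library size alone, the share over all tested genes is not given here. Their counts of members therefore have no background.

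Summed FPKM ratios of complexes I to V were 0.929, 0.940, 1.01, 0.994 and 0.989. On TMM-scaled CPM the ratios were 0.944, 0.935, 0.999, 0.991 and 0.988. On CPM by library size alone they were 1.005, 0.995, 1.06, 1.05 and 1.05, and on TPM computed from counts and lengths 1.02, 1.03, 1.11, 1.09 and 1.08. Without single libraries they ran from 0.915 to 0.945 (I), 0.931 to 0.951 (II), 0.993 to 1.03 (III), 0.980 to 1.01 (IV) and 0.979 to 0.996 (V).

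By library size alone the log2 fold changes of Cox4i1, Cox8a, Ndufa4, Ndufv2 and Atp5b turned to 0.0130, 0.00803, 0.0667, 0.0266 and 0.0736. Leaving out single libraries gave -0.198 to 0.0606 for Cox8a, -0.0486 to 0.01003 for Ndufa4, -0.0151 to 0.0218 for Uqcrc2, -0.00592 to 0.127 for Atp5e, and -0.0338 to 0.0467 percentage points for the difference in the Cox4i2 share (0.0145 with all libraries). Uqcrc2 turned to -0.000134 with limma-voom, -0.00312 with the 1 CPM filter, -0.00259 with protein-coding genes only, and -0.0137 without chromosome 14. For these changes the cause was not tested.

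With a replicate block, 19 members were higher and 29 lower, and Atp5a1 gained a call (-0.17, adjusted p = 0.0332). Deviations of same-numbered libraries correlated at -0.0166, -0.000537 and 0.0638 over all tested genes, which gives no sign of pairing by number. Pairing that touches only few genes was not tested.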
